A study of Bos taurus with 6 samples.

Results

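Matrix metalloproteinases are enzymes that cut the proteins around cells, and the tissue inhibitors of metalloproteinases (TIMPs) hold them in check. Expression of 9 such genes was followed in bovine fetal fibroblasts (bEFs), which are connective tissue cells. The genes were MMP1, MMP2, MMP3, MMP9, MMP13, MMP14 and MMP19, together with TIMP2 and TIMP3, and each was taken by its symbol from a table of 17663 genes, 14882 of which had a symbol. The study compared bEFs of fat-1 transgenic (FT) cattle fetuses with bEFs of wild-type (WT) fetuses. The exogenous fat-1 gene codes for a desaturase that turns n-6 into n-3 polyunsaturated fatty acids, and its promoter is not given in the sources used here. WT fetuses were Luxi cattle, and the breed of the FT fetuses is not given in the sources used here. All fetuses were at 50–60 days of gestation. Primary cultures were set up from the rest of the body once its head, limbs, organs and bones had been discarded. Each fetus gave 1 poly(A) library, so there were 3 FT libraries (FT_1, FT_2 and FT_3) and 3 WT libraries (WT_1, WT_2 and WT_3). The transgene, the breed, the fetus and the culture cannot be told apart in this design.

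Metalloproteinases need zinc in their active site, and most are released as inactive proenzymes whose propeptide must be removed. Collagenases open the triple helix of fibrillar collagens, gelatinases degrade the unwound chains and basement membrane collagen, and stromelysins cut proteoglycans and other proenzymes. Fibroblasts are a main source of both the enzymes and the TIMPs. On the cell surface, the membrane-type enzyme MMP14 binds TIMP2, the complex captures the proenzyme of MMP2, and a free MMP14 molecule then cleaves it, so that TIMP2 can both favour and block MMP2 activity. RNA levels were measured here, and enzyme activity was not.

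The table gave raw read counts and FPKM for each gene in each library. FPKM relates the fragments of a gene to its length and to the depth of the library, and is used below wherever genes are compared with each other. Total counts of FT_1, FT_2 and FT_3 were 63366834, 48167642 and 54204446. Those of WT_1, WT_2 and WT_3 were 69777641, 51310741 and 54271927. Groups were compared on the counts with edgeR's quasi-likelihood test, with Benjamini-Hochberg adjustment of p over all genes tested. A gene passed at an adjusted p under 0.05. A log2 fold change is FT minus WT. Its error is an approximate standard error (SE), derived from the fold change and edgeR's test statistic.

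FT_1 stood apart from the other FT libraries. Over 13482 genes with enough counts to be tested, the median absolute difference in log2 counts scaled by library size was 0.12 between FT_2 and FT_3. It was 0.40 between FT_1 and each of FT_2 and FT_3, and 0.13–0.17 between WT libraries. Between groups it was larger, at 0.61–0.65 from FT_1 to the WT libraries and 0.51–0.58 from FT_2 and FT_3 to them. More than 4-fold differences between FT_1 and FT_2 were seen for 1433 genes (10.6%), against 297 genes (2.20%) between FT_2 and FT_3. Among the 9 metalloproteinase and inhibitor genes, 5 differed more than 4-fold between FT_1 and FT_2, and 0 did so between FT_2 and FT_3. Within groups, gene levels spread by 35.4% beyond counting noise (edgeR's biological coefficient of variation) with all 6 libraries and by 10.6% without FT_1. The spread was 35.2–42.4% when any other library was left out instead. Results are therefore given with and without FT_1.

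With all 6 libraries, 0 of the 9 genes passed edgeR's test, although 2714 of the 13482 genes tested (20.1%) were higher and 2547 (18.9%) lower in FT cells. At an unadjusted p under 0.05, edgeR found 25.7% of all genes higher and 23.9% lower, and again 0 of the 9. At the threshold in the study's methods, an unadjusted p under 0.05 with a log2 fold change over 1 or under -1, 10.2% of genes were higher and 8.96% lower, and 0 of the 9 were among them. DESeq2 called 0 of the 9, with 21.3% of genes higher and 19.5% lower, and it gave no p for MMP9 and MMP13. limma on log2(FPKM + 1) also called 0 of the 9, with 15.0% of genes higher and 29.2% lower. The lowest adjusted p of any of the 9 in the edgeR fit was 0.149 and the highest 0.633. All 9 passed the filter on low counts, MMP9 and MMP13 through FT_1 and WT libraries.

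Without FT_1, MMP9 and MMP13 were over the filter's count minimum in WT libraries only, so that lower was the only call open to them, and their calls in that fit are not used. Of the other 7 genes 6 passed, 2 of them higher (MMP2 and MMP14) and 4 lower (MMP1, MMP3, MMP19 and TIMP3) in FT cells. TIMP2 had an adjusted p of 0.331 in that edgeR fit. The background was high as well, since 4215 of the 13765 genes then tested (30.6%) were higher and 4337 (31.5%) lower. Leaving out any other library moved the counts of all genes the other way. They were 2122 higher and 1963 lower without FT_2, and 2151 and 1998 without FT_3. Without WT_1 they were 1516 and 1531, without WT_2 1613 and 1570, and without WT_3 1796 and 1741. In each of these edgeR fits 0 of the 9 genes passed. Scaling by library totals alone gave 2049 genes higher and 3394 lower. It moved the median log2 fold change of all genes from 0.03 to -0.12, and limma's median was -0.12. The median log2 fold change of the 9 genes was 0.32 in the edgeR fit of 6 libraries. Without FT_1 it was -0.65. TIMP3, MMP9 and MMP13 changed sign between these fits, and the filter then fixed the direction of MMP9 and MMP13. For the 7 genes other than MMP9 and MMP13 the median was -0.43 with FT_1 and -0.49 without it, and for all genes -0.02 without it.

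**Figure D1:**
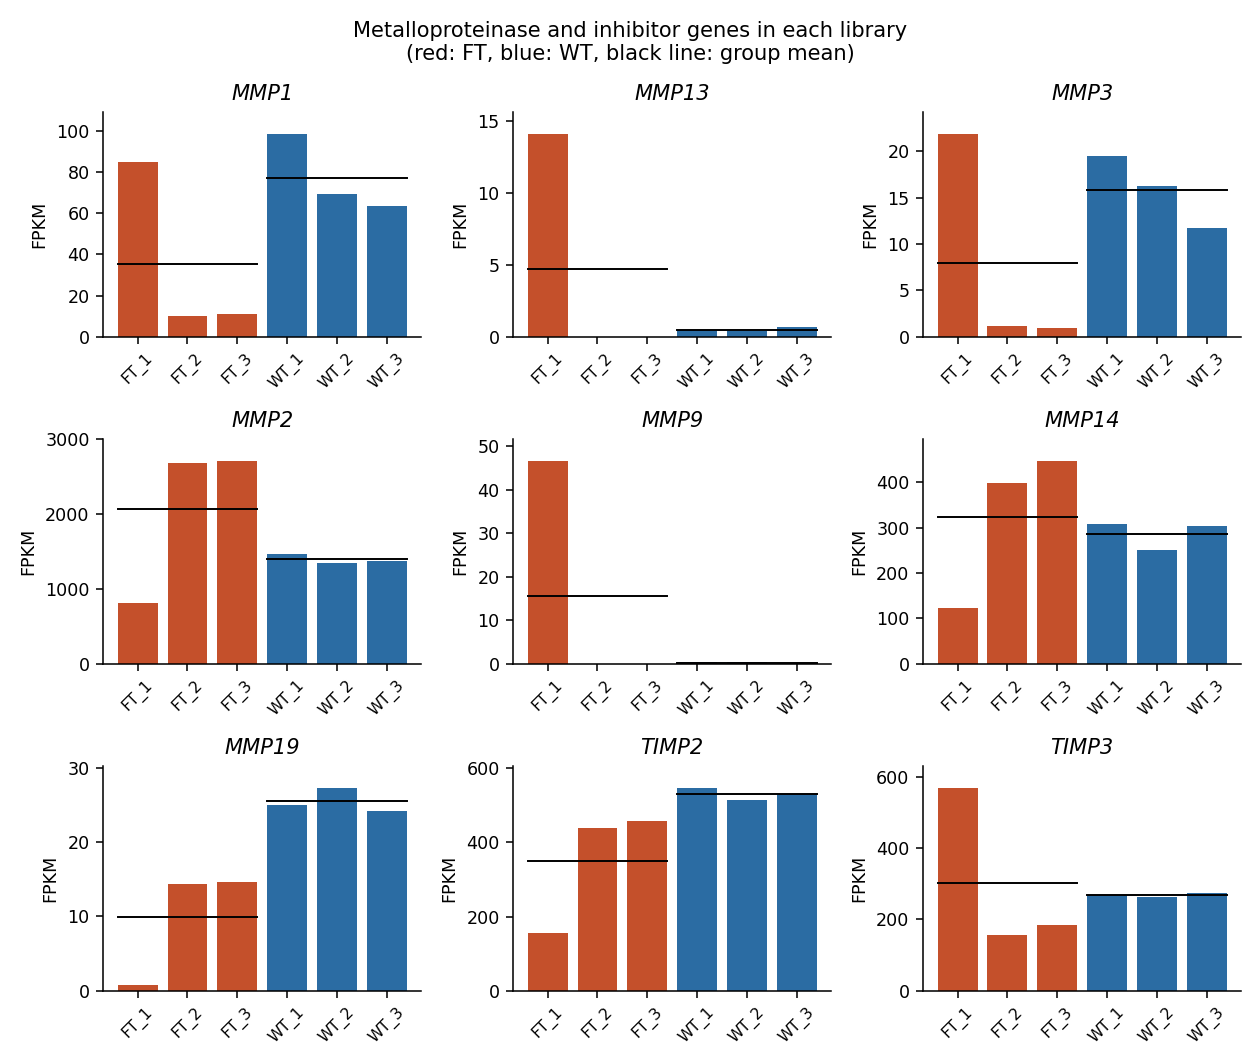
FPKM of the 9 genes (vertical axis, linear from 0, a scale of its own in each panel) in 3 FT libraries (red) and 3 WT libraries (blue), with the group mean as a black line. FT_1 differs from FT_2 and FT_3 in every panel, and MMP9 and MMP13 are at 0 in FT_2 and FT_3.

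The collagenase MMP1 (ENSBTAG00000048029), which starts the breakdown of type I and type III collagen, lies on the plus strand of chromosome 15 from 5811583 to 5820952. These and all positions below are as the authors' table gives them, and the cattle genome build is not given in the sources used here. The submitters' processing notes list a mouse build for these cattle samples. FPKM of MMP1 was 84.9, 10.1 and 11.2 in FT_1, FT_2 and FT_3, and 98.3, 69.5 and 63.7 in WT_1, WT_2 and WT_3. FT_1 thus lay within the WT range, while the WT mean was 7.25-fold above the mean of FT_2 and FT_3. The log2 fold change was -0.98 (SE 0.85, adjusted p = 0.397 by edgeR) with all libraries and -2.69 (SE 0.18) without FT_1. In bulk RNA, fewer cells that make a transcript and less of it per cell cannot be told apart, for MMP1 and for every gene below.

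MMP13 (ENSBTAG00000015059), a collagenase best known from cartilage and bone, lies at the same locus on the plus strand from 5670942 to 5681601. Its counts were 1396 in FT_1 and 0 in both FT_2 and FT_3, against 51, 30 and 55 in the WT libraries. In FPKM it reached 14.1 in FT_1 and 0.47, 0.38 and 0.65 in WT_1, WT_2 and WT_3. A count of 0 allows up to 3 counts, so that the WT mean in counts scaled by library size was at least 12.5-fold above FT_2 and at least 14.0-fold above FT_3. Such bounds cover counting error only. FT_1 was on the other side of the WT libraries, 28.2-fold above their mean FPKM. The log2 fold change of 3.36 (SE 2.37, adjusted p = 0.300 by edgeR) rested on FT_1, the only FT library with counts. It turned to -0.18 in limma on log2(FPKM + 0.1). Without FT_1 only a negative sign was open to MMP13, so that sign is not used.

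The stromelysin MMP3 (ENSBTAG00000037768) cuts proteoglycans and fibronectin and activates other proenzymes. It lies between MMP13 and MMP1 on the plus strand of chromosome 15, from 5779177 to 5785763. FPKM was 21.9 in FT_1 but 1.20 in FT_2 and 0.89 in FT_3. WT libraries had 19.5, 16.2 and 11.7. FT_1 was therefore just above the highest WT library, and the WT mean was 15.1-fold above the mean of FT_2 and FT_3. For MMP3 the log2 fold change was -0.85 (SE 1.19, adjusted p = 0.603 by edgeR), and -3.75 (SE 0.24) without FT_1.

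MMP2 (ENSBTAG00000019267), the gelatinase that fibroblasts make constitutively, was the most abundant of the 9 in every library. It lies on the plus strand of chromosome 18 from 23752891 to 23780118. FPKM of MMP2 was 815 in FT_1, with 2678 in FT_2 and 2704 in FT_3. In WT_1, WT_2 and WT_3 it was 1469.7, 1349 and 1373. FT_2 and FT_3 were above all WT libraries and FT_1 was below them all, with FT_2 and FT_3 together 1.93-fold above and FT_1 1.71-fold below the WT mean. edgeR's log2 fold change was 0.73 (SE 0.46, adjusted p = 0.248), and 1.12 (SE 0.06) without FT_1.

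The gelatinase MMP9 (ENSBTAG00000020676), which is typical of leukocytes and of epithelial cells at wound edges, lies on the plus strand of chromosome 13 from 74746976 to 74754303. It was nearly absent from all libraries but FT_1. Its counts were 7165 in FT_1 but 0 in FT_2 and 0 in FT_3, and 64, 39 and 8 in WT_1, WT_2 and WT_3. FPKM was 46.6 in FT_1 and 0.38, 0.31 and 0.06 in the WT libraries, so that FT_1 was 186-fold above the WT mean. The WT mean in counts scaled by library size was in turn at least 9.77-fold above FT_2 and at least 11.0-fold above FT_3. The log2 fold change was 6.06 (SE 2.92, adjusted p = 0.149 by edgeR). Without FT_1 only a negative sign was open to MMP9, so that sign is not used.

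MMP14 (ENSBTAG00000014824), the membrane-type enzyme that activates the MMP2 proenzyme, lies on the minus strand of chromosome 10 from 21967557 to 21978162. FPKM was 123, 398 and 446 in FT_1, FT_2 and FT_3, and 307, 251 and 303 in WT_1, WT_2 and WT_3. As for MMP2, FT_2 and FT_3 exceeded every WT library and FT_1 fell short of every one. For MMP14 the log2 fold change was 0.34 (SE 0.47, adjusted p = 0.599 by edgeR) but -0.03 in limma on log2(FPKM + 1), and 0.73 (SE 0.10) in edgeR without FT_1.

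MMP19 (ENSBTAG00000009051), a secreted enzyme that acts on basement membrane proteins, lies on the plus strand of chromosome 5 from 57426768 to 57433048. FPKM was 0.70 in FT_1, with 14.3 in FT_2 and 14.6 in FT_3, and 25.0, 27.2 and 24.2 in the WT libraries. Here all FT libraries were below all WT libraries, FT_1 the furthest, at 36.4-fold below the WT mean. FT_2 and FT_3 together were 1.76-fold below it. The exact permutation test of FPKM (two-sided) gave p = 0.10, the smallest value that 3 libraries against 3 allow. edgeR gave a log2 fold change of -1.20 (SE 0.94, adjusted p = 0.351), and -0.65 (SE 0.07) without FT_1.

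The inhibitor TIMP2 (ENSBTAG00000010899) lies on the plus strand of chromosome 19 from 53460671 to 53514937, where it overlaps another gene of the table with only 6 counts in all libraries together. FPKM of TIMP2 was 155 in FT_1 but 439.7 in FT_2 and 458 in FT_3, and 547, 516 and 529.8 in WT_1, WT_2 and WT_3. In FPKM all FT libraries were below all WT libraries, by 3.42-fold against the WT mean in FT_1 and 1.18-fold for FT_2 and FT_3 together (two-sided exact permutation p = 0.10). This depended on the scale. In CPM (counts scaled to library size) with edgeR's TMM factors, a scale added after the values were seen, TIMP2 was at 795 in FT_3 and 790.3 in WT_2, so that the groups overlapped. The log2 fold change was -0.43 (SE 0.40, adjusted p = 0.433 by edgeR), and -0.07 (SE 0.06) without FT_1.

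TIMP3 (ENSBTAG00000020638) is the inhibitor that stays bound to the extracellular matrix and also acts on ADAM and ADAMTS proteinases. It lies on the plus strand of chromosome 5 from 71388890 to 71459269. FPKM was 569, 155 and 185 in FT_1, FT_2 and FT_3. WT libraries were close together at 268, 262 and 275. FT_1 was 2.12-fold above the WT mean, and FT_2 and FT_3 were both below every WT library. The log2 fold change of TIMP3 was 0.32 (SE 0.49, adjusted p = 0.633 by edgeR), but -0.08 in limma on log2(FPKM + 1) and -0.49 (SE 0.08) in edgeR without FT_1.

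**Figure D2:**
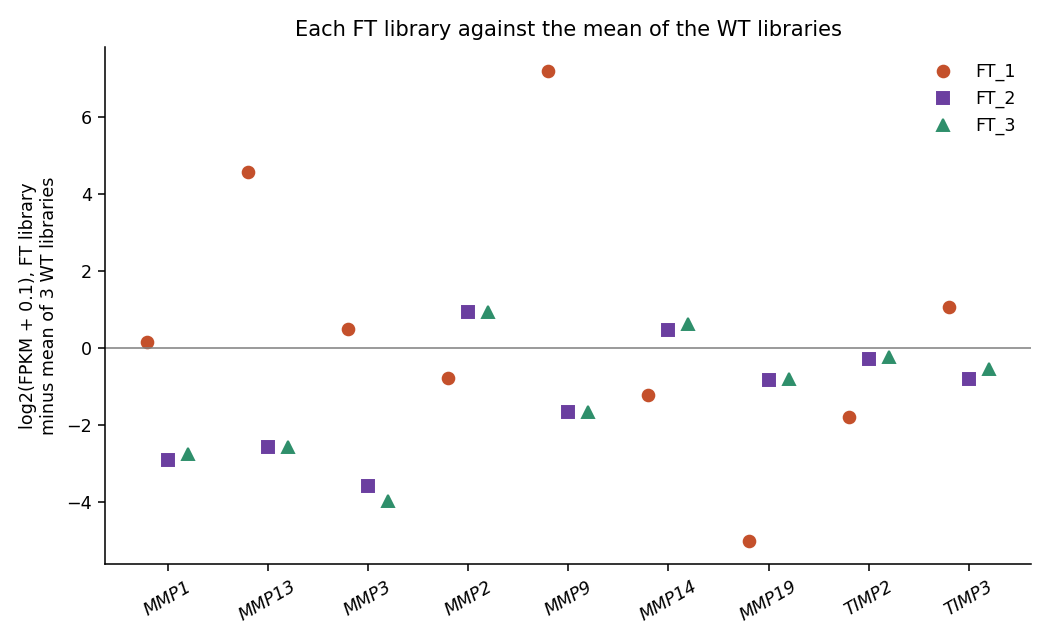
Difference between each FT library (FT_1 circles, FT_2 squares, FT_3 triangles) and the mean of the 3 WT libraries in log2(FPKM + 0.1) for the 9 genes, with 0 marking the WT mean. FT_1 and the pair of FT_2 and FT_3 lie on opposite sides of 0 for 7 genes and on the same side for MMP19 and TIMP2.

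FT_1 and the other FT libraries thus departed from WT cells in opposite directions for most of these genes. For 6 of the 9 (MMP2, MMP3, MMP9, MMP13, MMP14 and TIMP3), FT_1 was beyond the WT range in a direction opposite to that of both FT_2 and FT_3. Over all genes tested this held for 1612 genes (12.0%). This pattern was looked for after the values were seen, and no test was made of it. Groups of FPKM values did not overlap for MMP19 and TIMP2, both lower in FT cells, which was true of 36.9% of all genes tested, with another 21.8% higher in every FT library. Without FT_1, and leaving MMP9 and MMP13 aside, all of the other 7 genes had groups of FPKM values that did not overlap, 2 higher and 5 lower in FT cells, beside 29.6% and 47.2% of the genes then tested. FT_2 and FT_3 differed from each other by at most 1.35-fold among the 7 genes above 0 in both. For the 7 genes other than MMP19 and TIMP2, the exact permutation test gave two-sided p values of 0.30 to 1.0. Coefficients of variation ran from 2.50% (TIMP3) to 67.3% (MMP9) within WT libraries, and from 48.3% (TIMP2) to 173% (MMP9 and MMP13) within FT libraries.

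**Figure D3:**
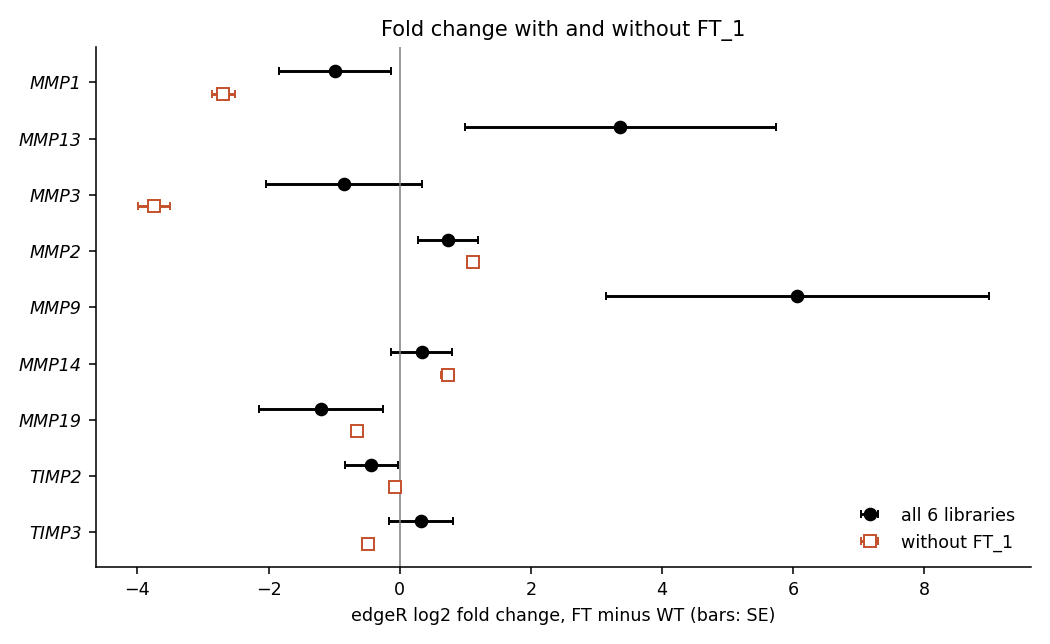
edgeR log2 fold change of FT against WT cells with its SE for the 9 genes, from all 6 libraries (black circles) and without FT_1 (open red squares). Squares for MMP9 and MMP13 are left out because FT_2 and FT_3 had 0 counts; TIMP3 is at 0.32 with FT_1 and at -0.49 without it.

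In WT cells the order of the levels by mean FPKM was MMP2 (1397), TIMP2 (531), MMP14 (287), TIMP3 (269), MMP1 (77.1), MMP19 (25.5), MMP3 (15.8), MMP13 (0.50) and MMP9 (0.25). Neighbours in this order had ranges that did not overlap, except MMP14 with TIMP3 and MMP13 with MMP9. In FT_2 and FT_3 the first 4 places were the same, with MMP14 (mean 422) and TIMP2 (mean 449) overlapping, and MMP19 (mean 14.4) stood above MMP1 (mean 10.6). FT_1 had another order, since TIMP3 at 569 came next after MMP2 and MMP19 was last. Of the summed FPKM of the 7 metalloproteinases, MMP2 made up 73.7%, 86.3% and 85.1% in FT_1, FT_2 and FT_3, against 76.5%, 78.7% and 77.3% in the WT libraries.

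The ratio of MMP2 to TIMP2 kept FT_1 with the other FT libraries. It was 5.25 in FT_1, with 6.09 in FT_2 and 5.91 in FT_3, against 2.69, 2.61 and 2.59 in WT_1, WT_2 and WT_3. The means were 5.75 ± 0.44 (SD, n = 3) and 2.63 ± 0.05 (SD, n = 3), a 2.18-fold difference. MMP14, which forms the activating complex with TIMP2, showed the same order of groups. Its FPKM ratio to TIMP2 was 0.79, 0.91 and 0.98 in the FT libraries and 0.56, 0.49 and 0.57 in the WT libraries, a 1.65-fold difference of the means. MMP2 relative to MMP14 was 6.64, 6.72 and 6.06 in FT cells and 4.79, 5.38 and 4.54 in WT cells, a ratio added after the values were seen. In FT_1 all 3 genes were low and in FT_2 and FT_3 MMP2 and MMP14 were high, yet TIMP2 was lower relative to both in every FT library.

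These ratios are descriptions, with no test. Among 12759 other genes with an FPKM above 0 in every library, 18.1% gave a ratio of MMP2 to that gene which was higher in every FT than in every WT library, and 4.90% one which was lower. For MMP14 the shares were 9.30% and 9.03%. The lowest FT ratio of MMP2 to TIMP2 was 1.95 times the highest WT ratio, a gap exceeded by 4.63% of those genes. For MMP14 to TIMP2 that gap was 1.38, exceeded by 4.88%.

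With TIMP3 as the denominator the place of FT_1 depended on the enzyme. MMP2 relative to TIMP3 was 1.43 in FT_1 but 17.3 in FT_2 and 14.6 in FT_3, on both sides of the WT values of 5.48, 5.15 and 4.99. MMP1 relative to TIMP3, in contrast, was 0.149, 0.0651 and 0.0603 in FT_1, FT_2 and FT_3 and 0.366, 0.265 and 0.231 in the WT libraries, lower in every FT library. MMP3 relative to TIMP3 did not overlap between groups either, at 0.0384, 0.00775 and 0.00480 in FT cells and 0.0728, 0.0620 and 0.0425 in WT cells. In all, 8 of the 21 ratios between 2 of the 7 genes above 0 in every library did not overlap between groups, which held for 54.9% of the ratios between all genes tested that were above 0 in every library. Ratios to those genes were lower in every FT library for 23.5% of them with MMP1 and for 12.7% with MMP3. TIMP3 relative to TIMP2 was 3.66 in FT_1 but 0.35 in FT_2 and 0.41 in FT_3, and 0.49, 0.51 and 0.52 in the WT libraries. The summed FPKM of the 7 enzymes divided by that of both inhibitors was 1.53 in FT_1, 5.22 in FT_2, 4.94 in FT_3 and 2.36, 2.20 and 2.21 in WT cells, so that the groups overlapped. The summed FPKM of TIMP2 and TIMP3 alone did not overlap, at 724, 595 and 643 in FT cells and 815, 778 and 805 in WT cells. The ratios to TIMP3 and the sums were also added after the values were seen.

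**Figure D4:**
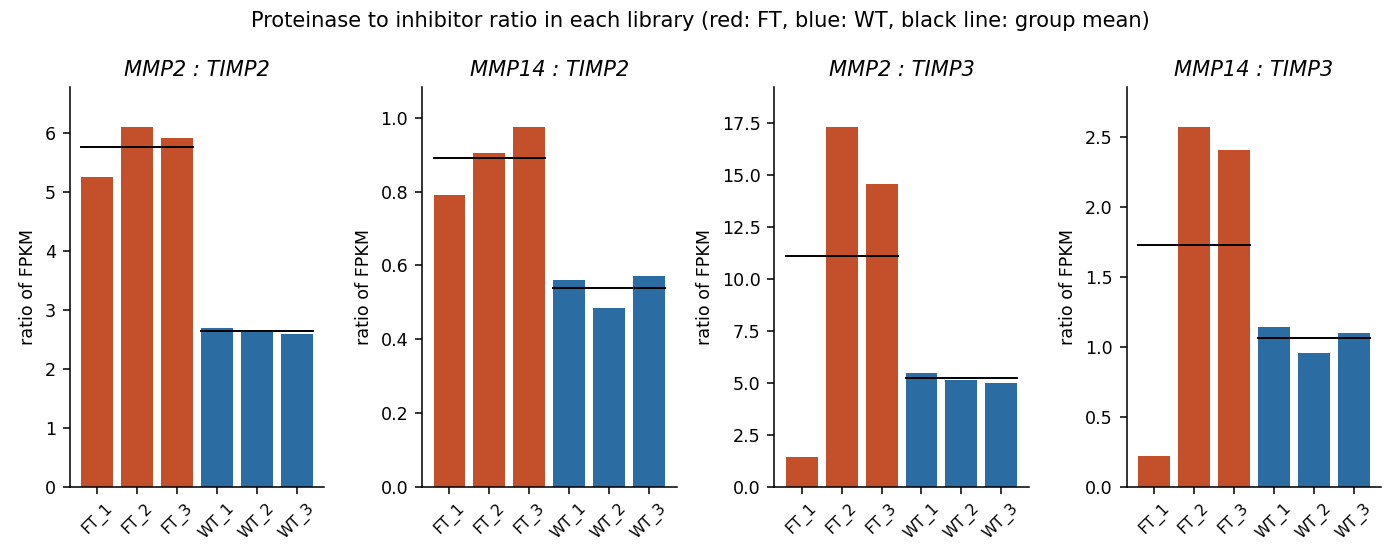
FPKM of MMP2 and of MMP14 divided by that of TIMP2 or TIMP3 (vertical axes, linear from 0) in 3 FT libraries (red) and 3 WT libraries (blue), with group means as black lines. Ratios to TIMP2 are higher in every FT than in every WT library, while these ratios to TIMP3 are lowest in FT_1 and highest in FT_2 and FT_3.

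MMP13, MMP3 and MMP1 belong to a cluster of metalloproteinase genes on chromosome 15, which spanned 9 genes of the table and 483 kb from MMP13 to MMP7. MMP12, MMP8, MMP20 and MMP7 in that cluster were at or near 0 in all libraries, with a highest FPKM of 0.26, for MMP7 in FT_1. MMP27, a little studied member, had an FPKM of 0.29, 22.4 and 22.2 in FT_1, FT_2 and FT_3, and 57.9, 49.0 and 48.9 in WT cells. Unlike MMP13, MMP3 and MMP1, it was therefore lowest in FT_1, as MMP2, MMP14, MMP19 and TIMP2 were.

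The cluster also held a gene without a symbol (ENSBTAG00000015818), described in the table as interstitial collagenase-like, on the minus strand from 5868388 to 5877633. It was singled out after its values were seen. FPKM was 68.6 in FT_1, with 13.8 in FT_2 and 14.1 in FT_3, and 153, 112 and 109 in the WT libraries. edgeR gave a log2 fold change of -1.81 (SE 0.67, adjusted p = 0.0786), and -2.99 (SE 0.15) without FT_1, where it passed. Interstitial collagenase is another name of MMP1. How reads shared by such copies were counted is not given in the sources used here, so the split of reads between this gene and MMP1 is uncertain. Both had lower FPKM in FT_2 and FT_3 than in every other library.

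**Figure D5:**
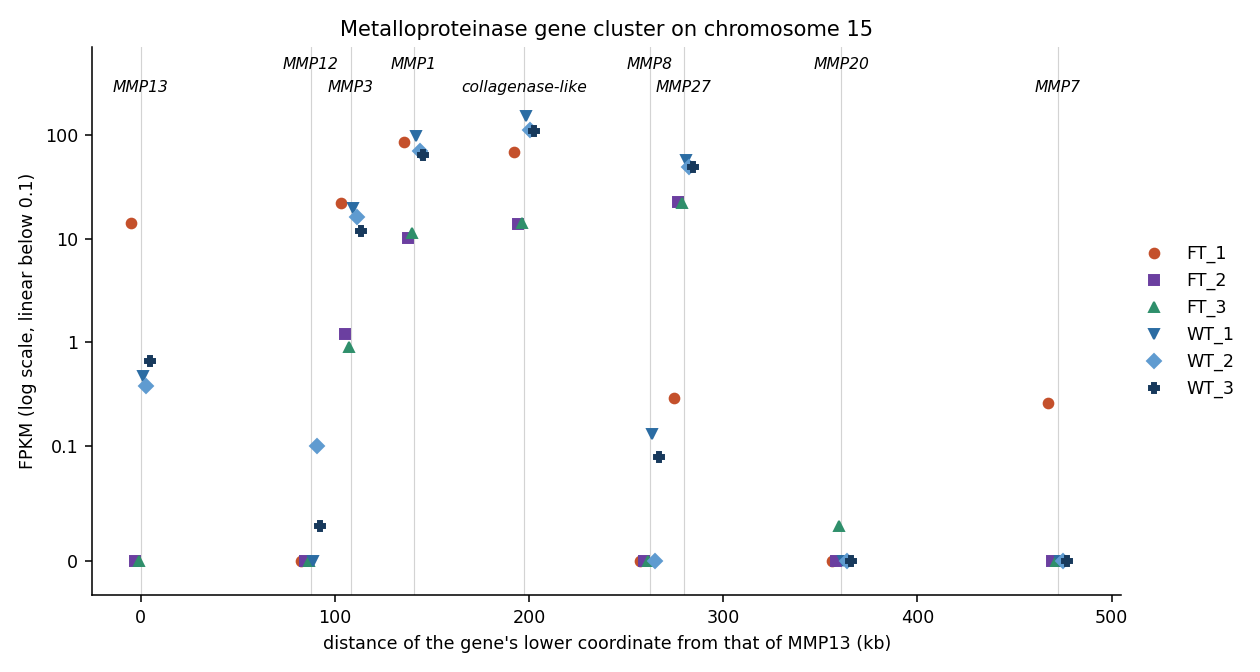
FPKM (log scale, linear below 0.1) of the 9 genes of the chromosome 15 cluster in each library, placed by the distance in kb from MMP13; libraries are shifted slightly sideways for clarity. MMP13, MMP3 and MMP1 are far lower in FT_2 and FT_3 than in FT_1, whereas MMP27 is lowest in FT_1.

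Of 17 other metalloproteinase genes listed, 13 were in the table and 8 were tested. MMP10, MMP21, MMP23B and MMP26 were not analysed here. By edgeR 2 of the 8 rose (MMP11 and MMP15) and 0 fell, where 20.1% of all genes tested were higher and 18.9% lower, and their median log2 fold change was 0.71 (0.03 over all genes tested), with 0.95 without FT_1. Without FT_1, 4 rose and 3 fell (30.6% and 31.5% of all genes), and without WT_2 or without WT_3 only 1 rose. Of all genes 1613 and 1796 were higher in those 2 fits, against 2714 with all libraries. MMP27 was the most abundant of these metalloproteinases (which here and below means the highest FPKM averaged over the 6 libraries), although MMP28 was in FT_1. MMP27 did not pass by edgeR (log2 fold change -1.62, SE 1.20, adjusted p = 0.322), but it passed without FT_1 at -1.05 (SE 0.09). The membrane-type enzyme MMP15 rose most, with a low FPKM of 0.70, 0.62 and 0.75 in FT cells and 0.20, 0.32 and 0.24 in the WT libraries. MMP15 had a log2 fold change of 1.60 (SE 0.29, adjusted p = 0.00822 by edgeR), and it passed in each of the 6 fits that left out a single library. Without FT_1, MMP23 rose more (2.01, SE 0.11) than MMP15 (1.61).

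Of 5 other inhibitors, TIMP1 was not analysed here, and 3 of the 4 in the table were tested. None rose and 1 fell by edgeR (all genes 20.1% and 18.9%), with 2 falling without FT_1 (all genes 31.5%), and the median log2 fold change was -1.52, or -1.93 without FT_1. That gene was TFPI2, a serine proteinase inhibitor of the matrix that can also restrain metalloproteinases. FPKM of TFPI2 was 11.8 in FT_1 but 41.7 in FT_2 and 39.5 in FT_3, and 213, 205 and 179.8 in WT cells. It was thus lower in every FT library, with a log2 fold change of -2.52 (SE 0.48, adjusted p = 0.00982 by edgeR), and it passed in each of the 6 fits without a library.

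The ADAM proteinases, most of them membrane-anchored sheddases, had 4 genes that rose (ADAM8, ADAM9, ADAM15 and ADAM19) and 1 that fell (ADAM12) among 8 tested, beside 20.1% and 18.9% of all genes, with a median log2 fold change of 0.46 (0.62 without FT_1). Without FT_1 the counts were 5 and 2, beside 30.6% and 31.5%. Without FT_2 they were 4 and 0, without FT_3 they were 3 and 0, and without any single WT library 2 and 0. Counts of all genes were lower in these fits too, at 2122 and 1963 without FT_2 and 2151 and 1998 without FT_3. Without a WT library they were 1516 to 1796 and 1531 to 1741, against 2714 and 2547 with all libraries. For ADAM genes, scaling by library totals, the replicate number as a block and limma each gave 2 and 1. All genes then numbered 2049 and 3394, 1838 and 1741, and, in limma on log2(FPKM + 1), 1837 and 3573. ADAM9 was the most abundant and rose by a log2 fold change of 0.34 (SE 0.09, adjusted p = 0.0247). ADAM8 rose most, at 2.20 (SE 0.65, adjusted p = 0.0409), and ADAM12 fell most, at -0.61 (SE 0.19, adjusted p = 0.0459), both by edgeR. FPKM of ADAM8 was 3.17 in FT_1 but 0.63 in FT_2 and 0.81 in FT_3, and without FT_1 its log2 fold change was 1.14, below that of ADAM19 at 1.51. ADAM9, ADAM8 and ADAM12 passed in 2, 3 and 1 of the 6 fits without a library.

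The ADAMTS proteinases, which are secreted and include aggrecan-cutting enzymes and procollagen peptidases, had 18 of 19 listed genes in the table. ADAMTS13 was not analysed here. Of 14 tested, 7 rose and 0 fell (20.1% and 18.9% of all genes), with a median log2 fold change of 1.35 (1.29 without FT_1). ADAMTS15, which did not pass, was over the filter's count minimum in WT libraries only without FT_1. Lower was thus the only call open to it there, and the median of 1.29 includes it. The number of ADAMTS genes that rose was 10 without FT_1 (30.6% of all genes) and 6 without FT_2 or FT_3 (2122 and 2151 of all genes). It was 4 without any single WT library, where 1516 to 1796 of all genes were higher, against 2714 with all libraries. ADAMTS2, a procollagen peptidase and the most abundant, had an FPKM of 21.9, 69.1 and 70.5 in FT_1, FT_2 and FT_3 and of 41.0, 39.4 and 43.5 in the WT libraries. The fold change of ADAMTS2 was 0.55 on the log2 scale (SE 0.44, adjusted p = 0.355 by edgeR), and 0.93 (SE 0.07) without FT_1, where it passed. FT_1 lay below and FT_2 and FT_3 above the WT libraries, as for MMP2 and MMP14. ADAMTS9 rose most, from 0.15, 0.13 and 0.25 in WT cells to 1.97, 1.85 and 1.57 FPKM in FT cells (log2 fold change 3.51, SE 0.31, adjusted p = 0.00109 by edgeR), and it passed in each of the 6 fits without a library.

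Among 8 genes of proenzyme activation, cell surface docking and clearance, 5 rose (FURIN, PLG, PLAUR, BSG and LRP1) and 1 fell (PLAT), against 20.1% and 18.9% of all genes, with a median log2 fold change of 0.60 (0.54 without FT_1). The counts were 5 and 2 without FT_1 (30.6% and 31.5% of all genes), 3 and 1 without FT_2, FT_3 or WT_3, 2 and 0 without WT_1 and 2 and 1 without WT_2. All genes numbered 2122 and 1963 without FT_2, 2151 and 1998 without FT_3, and 1796 and 1741 without WT_3. Without WT_1 they numbered 1516 and 1531 and without WT_2 1613 and 1570, against 2714 and 2547 with all libraries. BSG, a surface glycoprotein known to induce metalloproteinases, was the most abundant. FPKM of BSG was 461, 460.3 and 446 in FT cells and 304, 310.1 and 312 in WT cells (log2 fold change 0.72, SE 0.08, adjusted p = 0.00162 by edgeR), and it passed in each fit without a library. PLG, which codes for plasminogen, rose most, at 1.95 (SE 0.52, adjusted p = 0.0299 by edgeR), from a low level of at most 0.23 FPKM in WT cells. It passed in 1 of the 6 fits without a library, the one without FT_1. PLAT, the tissue plasminogen activator, fell by 0.79 on the log2 scale (SE 0.17, adjusted p = 0.0134 by edgeR), and failed only without WT_1.

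Of 14 transcription factors with known sites in metalloproteinase promoters, all were tested, 5 rose (FOS, JUNB, JUND, RUNX2 and RELA) and 1 fell (ETS2), beside 20.1% and 18.9% of all genes, and the median log2 fold change was 0.36 but 0.12 without FT_1. The counts were 5 and 4 without FT_1 (all genes 30.6% and 31.5%), and 4 and 0 without any other single library. All genes then numbered 1516 to 2151 higher and 1531 to 1998 lower, against 2714 and 2547 with all libraries. JUNB, a subunit of the AP-1 factor, was the most abundant, with an FPKM of 191, 163 and 161 in FT cells and 61.2, 65.5 and 72.7 in WT cells. It rose by a log2 fold change of 1.52 (SE 0.11, adjusted p = 0.000688 by edgeR). FOS, its AP-1 partner, rose most, with an FPKM of 34.7, 49.9 and 41.8 in FT cells and 6.56, 5.87 and 8.75 in WT cells (log2 fold change 2.74, SE 0.22, adjusted p = 0.000850 by edgeR). Both were higher in every FT library, FT_1 included, and passed in each fit without a library. ETS2 was the gene that fell, by 0.31 on the log2 scale (SE 0.08, adjusted p = 0.0274 by edgeR), and it passed only without FT_1 among the fits without a library. In that fit FOSL1 fell most, by 1.90.

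Among 13 matrix substrates, 12 were tested, 5 rose (FN1, HSPG2, COL4A1, COL4A2 and COL5A1) and 1 fell (ACAN), where 20.1% and 18.9% of all genes did, and the median log2 fold change was 0.92, or 1.24 without FT_1. Without FT_1, 9 rose and 1 fell (30.6% and 31.5% of all genes), while 5 rose without any other single library, with 1 falling without FT_3 and 0 without FT_2 or a WT library. In the fits without another library all genes numbered 1516 to 2151 higher and 1531 to 1998 lower, against 2714 and 2547 with all libraries. The proteoglycan DCN (decorin) was the most abundant over the 6 libraries, though FN1 was in FT_1, COL1A1 in WT_2 and COL1A2 in WT_3, with an FPKM of 1803, 4092 and 3769 in FT_1, FT_2 and FT_3 and of 2299, 2054 and 2227 in WT cells (log2 fold change 0.72, SE 0.32, adjusted p = 0.129 by edgeR). Without FT_1 DCN passed at 1.01 (SE 0.07). FN1 (fibronectin) rose most, at 7499 in FT_1, with 1779.8 in FT_2 and 1831 in FT_3 against 284, 239 and 304 in WT cells. On the log2 scale FN1 changed by 3.89 (SE 0.67, adjusted p = 0.00668 by edgeR), and by 2.88 without FT_1. In that fit COL4A2 (3.92), COL4A1 (3.26) and ELN (2.89) ranked above it. ACAN (aggrecan) fell by 2.26 on the log2 scale (SE 0.66, adjusted p = 0.0395 by edgeR) from a low level of 0.66, 0.71 and 0.56 FPKM in WT cells, and passed in 2 of the 6 fits without a library.

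Of 7 cytokine inducers, IL1B was not analysed here and 3 of the 6 in the table were tested. TGFB1 was both the most abundant and the only one that rose, by a log2 fold change of 0.56 (SE 0.15, adjusted p = 0.0329 by edgeR), and it passed in 2 of the 6 fits without a library, those without FT_1 and without FT_2. It did not pass with scaling by library totals, with the replicate number as a block or in limma. None fell, but 2 did without FT_1 (IL6 and TGFB2), where 1 rose (all genes 20.1% higher and 18.9% lower, and 30.6% and 31.5% without FT_1). The median log2 fold change of the 3 was 0.56, and of the opposite sign without FT_1 (-0.70).

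Marker genes of 8 cell types were read in the same table. All 10 fibroblast markers were present with VIM (vimentin) as the most abundant over the 6 libraries, though DCN was above it in FT_1 and FT_2, and their summed FPKM was 8551 in FT_1 but 20028 in FT_2 and 19314 in FT_3, and 21590.4, 21164 and 21395 in WT cells. VIM was at 1244, 3850.2 and 4171 in FT_1, FT_2 and FT_3, and at 7891, 8178 and 7312 in WT cells. By edgeR, 1 of the 10 rose (PDGFRA) and 0 fell (20.1% and 18.9% of all genes), while 5 rose and 2 fell without FT_1 (30.6% and 31.5%), VIM among the latter (log2 fold change -0.79, SE 0.07). Their part in the metalloproteinase results was not tested.

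Epithelial markers were concentrated in FT_1, the library with the highest MMP9 and MMP13 counts. The summed FPKM of the 6 epithelial markers was 432 in FT_1, with 12.7 in FT_2 and 11.9 in FT_3, and 10.03, 7.83 and 13.9 in WT cells. KRT5 (keratin 5), the most abundant in FT_1 and over the 6 libraries, was at 172 in FT_1, 2.57 in FT_2, 1.63 in FT_3 and 0 in every WT library. KRT14, KRT8 and KRT18 followed the same order and were also at 0 in every WT library, while EPCAM was at 0.57 in FT_1 and at 0 in the other 5. CDH1 (E-cadherin) was at 36.3 in FT_1, with 7.11 in FT_2 and 8.41 in FT_3, which made it the most abundant in FT_2 and FT_3, and it made up the whole sum of the WT libraries. Its log2 fold change without FT_1 was -0.28 (SE 0.20), and it did not pass. The 4 keratins were over the filter's count minimum in FT libraries only, with or without FT_1, so that higher was the only call open to them, and no call of theirs is used. The part of such cells in the FT_1 values of MMP9, MMP13 and TIMP3 was not tested.

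The 4 mesothelial markers had a summed FPKM of 206 in FT_1 but 45.1 in FT_2 and 46.3 in FT_3, and 2.35, 3.48 and 3.34 in WT cells. Nearly all of it came from MSLN (mesothelin), at 199, 44.9 and 46.2 in FT_1, FT_2 and FT_3 and 2.08, 3.18 and 3.06 in WT cells, which passed edgeR's test. WT1, which marks the same cells, was at 0 in all FT libraries and at most 0.05 in WT cells. UPK3B was at 1.03, 0.10 and 0.09 in FT_1, FT_2 and FT_3 and 0.20, 0.25 and 0.25 in WT cells, so that FT_2 and FT_3 were below every WT library. KRT19 was at 6.26 in FT_1 and at most 0.07 elsewhere. MSLN was the only 1 of 2 tested that passed, with or without FT_1 (all genes 20.1% higher and 18.9% lower, and 30.6% and 31.5% without FT_1).

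Markers of leukocytes, which are known to make MMP9, were low throughout. The summed FPKM of the 5 in the table was 4.25, 4.12 and 3.57 in FT cells and 8.07, 6.74 and 7.85 in WT cells, most of it from CD14, while AIF1 and ITGAM did not exceed 0.19 in any library. Of 3 tested, 0 rose and 1 fell (CD68, which passed in 2 of the 6 fits without a library), and of 4 tested without FT_1, 0 rose and 2 fell. All genes stood at 20.1% and 18.9%, and at 30.6% and 31.5% without FT_1, for these and the other markers below. PTPRC was not analysed here. The 5 endothelial markers summed to 1.03, 0.47 and 0.49 in FT cells and 1.52, 1.0 and 1.19 in WT cells, led by PECAM1 in WT cells and by VWF in FT_2 and FT_3, with KDR at 0 in all FT libraries. None of 3 tested passed, and 1 of 4 fell without FT_1. The 6 chondrocyte and osteoblast markers, led by SOX9 in FT_1, SP7 in FT_2 and FT_3 and ACAN in WT cells, summed to 4.47, 0.84 and 1.32 in FT cells and 1.21, 1.72 and 1.11 in WT cells. COL2A1 was at 0.07 in FT_1 and 0 elsewhere. Of 4 tested, 0 rose and 1 fell (ACAN), while without FT_1 1 rose (SP7) and 1 fell.

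Skeletal muscle markers in the table numbered 3 and summed to 5.74, 4.02 and 3.21 FPKM in FT cells and 0.14, 0.04 and 0.12 in WT cells, led in FT cells by DES (desmin). The 2 tested, DES and MYH3, were over the filter's count minimum only in FT and only in WT libraries, so that the direction of a call was fixed and their calls are not used. MYOD1 and MYOG were not analysed here. The 4 adipocyte markers summed to 1.44, 10.9 and 11.9 in FT cells and 142, 129 and 145 in WT cells, led by FABP4 in FT_3 and WT cells, which fell, while LEP rose, of 3 tested, and ADIPOQ did not exceed 0.28. FABP4 passed in 2 and LEP in 1 of the 6 fits without a library. LEP was at 0.03 in FT_1, within the WT range of 0.02–0.09, with 4.91 in FT_2 and 4.45 in FT_3. FABP4 was at 0.08 in FT_1, with 4.67 in FT_2 and 5.95 in FT_3, and at 140.3, 128 and 143 in WT cells. The part of these markers in the metalloproteinase and TIMP results was not tested.

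Genes whose levels followed those of MMP2 and TIMP2 most closely were taken by Pearson's r of log2(FPKM + 1) over the 6 libraries, among the 5814 other genes whose mean FPKM was at least 10. For MMP2 they were PLEKHG2 (r = 0.999), LUM (r = 0.998) and TPP1 (r = 0.998), and r was above 0.99 for 16 genes. LUM, the proteoglycan lumican, was at 551 in FT_1 but 2759 in FT_2 and 2559 in FT_3, and at 1224, 1117 and 1137 in WT cells. For TIMP2 they were HOGA1, IGFBP3 and ARMH4, each with an r above 0.99, as for 49 genes. IGFBP3, which binds insulin-like growth factors and is itself cut by metalloproteinases, was at 16.1, 160.2 and 164 in FT_1, FT_2 and FT_3, and at 244, 214 and 234 in WT cells. The 6 points fall into FT_1, the pair of FT_2 and FT_3, and the WT libraries. A gene with the same order of levels and a like spacing between them therefore has a high r.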

How the data were processed

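RNA was measured in bEFs of 3 FT and 3 WT fetuses. The authors used HISAT for mapping, then StringTie and edgeR for expression values. The submitters' processing notes list HISAT2 2.0, StringTie 1.3.0 and Bowtie 0.12.2. The raw counts and the FPKM values were deposited by the authors in 1 table, with a column of each kind per library. Whether counting used strand is not given in the sources used here.

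Members and lists were chosen with earlier results of these data known. Counts were tested with edgeR 4.0.16 in R 4.3.3 (TMM scaling, filterByExpr, quasi-likelihood test, group as the single factor), and p was adjusted over all genes tested by the Benjamini-Hochberg method. edgeR was made the main test because counts were in the table and the study's methods name it. Alternatives were other size factors, DESeq2 1.42.0, limma 3.58.1 on log2(FPKM + 1) and log2(FPKM + 0.1) with a mean FPKM of at least 0.5, no filter, a replicate block, other thresholds and leaving out each library. FPKM values of a gene in the 3 FT and the 3 WT libraries were compared by an exact permutation test of the difference in group means, in SciPy 1.17.1. From each list the gene with the highest mean FPKM and the passing genes with the largest rise and fall were named, with the most abundant gene of each marker list and 3 genes per likeness. Other genes behind a count of 5 or fewer, keratins other than KRT5, CDH1, ELN, MMP23, MMP28, FOSL1, COL1A1, COL1A2, other genes leading a list in some libraries, WT1, UPK3B, ADIPOQ, other markers at or near 0 and the genes of the chromosome 15 cluster were named after their values were seen. The fits were tried on simulated counts, with an even spread in all libraries and no library set apart as FT_1 was. That does not show how they behave on these data. Replicates were separate fetuses. No sequences are shown.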

Additional observations from a re-analysis of the deposited data

How the results depend on the processing

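The number of the 9 genes that passed was 0 higher and 0 lower in FT cells under every alternative but 1. It ranged from 0 to 2 higher and from 0 to 6 lower over the fits that left out a library, and the upper ends came from the fit without FT_1, MMP9 and MMP13 included, whose direction the filter fixed there. Of 126 alternative fits of a single gene's log2 fold change, 115 kept the direction and 11 reversed it. An adjusted p under 0.05 was found in 8, all of them without FT_1. Both the 11 and the 8 include MMP9 and MMP13 without FT_1, where their direction was fixed. Over the alternatives that kept FT_1, the adjusted p of the 9 genes ranged from 0.0961 to 0.982. For all genes, the counts ranged from 1516 to 4215 higher and from 1531 to 4337 lower over the fits without a library. limma on log2(FPKM + 1) with no filter gave 1744 higher and 3622 lower. The study's threshold gave 1378 higher and 1208 lower, and an adjusted p under 0.01 gave 1395 and 1358. The cause of these shifts was not tested, apart from stricter thresholds calling fewer genes.

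Log2 fold changes reversed as follows. MMP13 was at -0.18 in limma on log2(FPKM + 0.1). MMP14 was at -0.0296 in limma on log2(FPKM + 1), with or without the filter, and at -0.0306 on log2(FPKM + 0.1). TIMP3 was at -0.0803 and -0.0813 in the same fits. Over the fits without a library, MMP9 ranged from -8.03 to 6.64, MMP13 from -8.38 to 3.95 and TIMP3 from -0.49 to 0.63, the lowest being without FT_1. Those of MMP9 and MMP13 depend on edgeR's prior count, since FT_2 and FT_3 had 0 counts, and without FT_1 their sign was fixed. No such fold change reversed when a library other than FT_1 was left out. The FPKM ratio of MMP2 to TIMP2 in FT over WT cells ranged from 2.12 to 2.28, and that of MMP14 to TIMP2 from 1.57 to 1.74, when a library was left out. In counts scaled by TMM in place of FPKM, an alternative chosen after seeing the data, the FT and WT libraries overlapped for TIMP2, with or without FT_1.

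Samples with the same replicate number were different fetuses, and their deviations from the group means did not go together (r = -0.00190, -0.0201 and 0.00911 over genes), FT_1 and FT_2 being closest to WT_2 and WT_3. With the number as a replicate block, 1838 genes were higher and 1741 lower, 0 of the 9 genes passed in either direction, and the log2 fold change of MMP13 was -2.26. Depth limits MMP9 and MMP13, which had at most 64 counts in any library other than FT_1.

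Counts of the gene lists moved as well, over the alternatives that kept all libraries. All genes ranged from 1378 to 3238 higher and from 1208 to 3622 lower over the same alternatives. ADAM genes numbered 2 to 4 higher and 0 to 1 lower, ADAMTS genes 4 to 7 higher and 0 lower, and other metalloproteinases 1 to 3 higher and 0 lower. Other inhibitors numbered 0 higher and 1 to 3 lower, activation and clearance genes 1 to 5 higher and 0 to 1 lower, and transcription factors 3 to 5 higher and 0 to 3 lower. Matrix substrates numbered 5 to 7 higher and 0 to 1 lower, and cytokine inducers 0 to 1 higher and 0 lower.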
